A study of Drosophila melanogaster with 6 samples.

Results

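The UDP-glycosyltransferase genes of Drosophila melanogaster were followed in whole prepupae mutant for Sox14, which encodes a DNA-binding protein of the HMG-box class. Members were chosen by name, as every gene with a single-gene probe set whose symbol starts with Ugt followed by a digit, and 35 of the 11982 genes measured met that rule. The same 35 names make up the Ugt genes of the RefSeq annotation of Release 6 plus ISO1 MT, and each had 1 probe set, so no choice among probe sets was needed. Animals homozygous for the sox14 L1 allele in the w1118 background were compared with w1118 animals, both collected at 0 h, immediately after pupariation. Each genotype was measured on 3 arrays, with RNA from 10 pooled prepupae per array. The white-eye strain background was thus shared by both groups, and the labels do not describe the lesion of the allele. Nor do they state whether replicate samples were grown apart, and the p-values cover the spread among these 6 samples alone, which may be technical.

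UDP-glycosyltransferases are enzymes anchored in the membrane of the endoplasmic reticulum that join a sugar from a UDP-sugar, in insects mostly glucose, to small fat-soluble molecules. The product is more soluble in water and is more easily stored or excreted, so the family serves in the removal of plant toxins, insecticides, odorants, pigments and hormones. In insects many members are active in the midgut, the fat body and the Malpighian tubules, the excretory organs of the fly, and others in sense organs. Transcripts of the family are arranged in part as runs of related genes that lie side by side. The comparison asked which of these transcripts differ between the genotypes at the onset of metamorphosis.

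All values are log2 expression values, and all changes are mutant minus control on that scale with their standard error. A gene was called when its adjusted p in limma's moderated test, Benjamini-Hochberg adjusted over 18769 probe sets, was under 0.05. Sox14 itself read 10.34, 10.67 and 10.73 on the mutant arrays and 11.40, 11.60 and 11.72 on the control arrays, and it fell by 0.99 ± 0.13 (adjusted p = 0.00101). On the first mutant array the probe sets for 18S rRNA averaged 12.18, against 7.56 to 7.94 on the other 5 arrays. A low range was set for each array as the lower 95% of 98 control probe sets, with upper limits of 5.73 to 5.99. Values within it were treated as too dim for the size of a change to be read at face value, since the summary used by the authors compresses changes there.

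Among the 35 genes, 11 rose in the mutant, 3 fell and 21 were not called. The share called was 40% in all, 31.4% higher and 8.57% lower, beside 24.7%, 11.3% and 13.4% of all genes. The median change of the 35 was 0.02, against -0.03 for all genes. It was 0.24 when the dimmest 40% of probe sets were omitted, which left 14 of the 35 genes. Changes of at least 1 on the log2 scale were called for 6 members (17.1%), 5 higher (14.3%) and 1 lower (2.86%), where 6.20% of all genes had such changes, 3.62% higher and 2.58% lower. Of these 5 rises, that of Ugt303A1 lay wholly in the low range, and those of Ugt304A1 and Ugt36E1 had their control values there. The rises of Ugt35A1 and Ugt303A1 were under 1 with median centring and in some fits that left out an array. The 2 genotypes did not overlap for 18 of the 35 genes (51.4%), which include all 14 called, beside 42.8% of all genes. Without the first mutant array 10 members rose and 3 fell, beside 8.90% and 10.2% of all genes.

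A large share of the family was dim in these animals. Of the 35 genes, 17 lay in the low range on all 6 arrays (48.6%, against 16.7% of all genes), 14 lay above it on all 6, and 4 lay in it on some arrays. Of the 14 above it, 5 rose, 2 fell and 7 were not called, so that 50% were called, beside 28.2% of all genes above it. Of the 17 within it, 3 rose and 14 were not called, so that 17.6% were called, beside 5.31% of such genes in all. The 4 that crossed the limit, 3 called higher and 1 called lower, were bound to differ between arrays, and their number supports nothing.

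**Figure D1:**
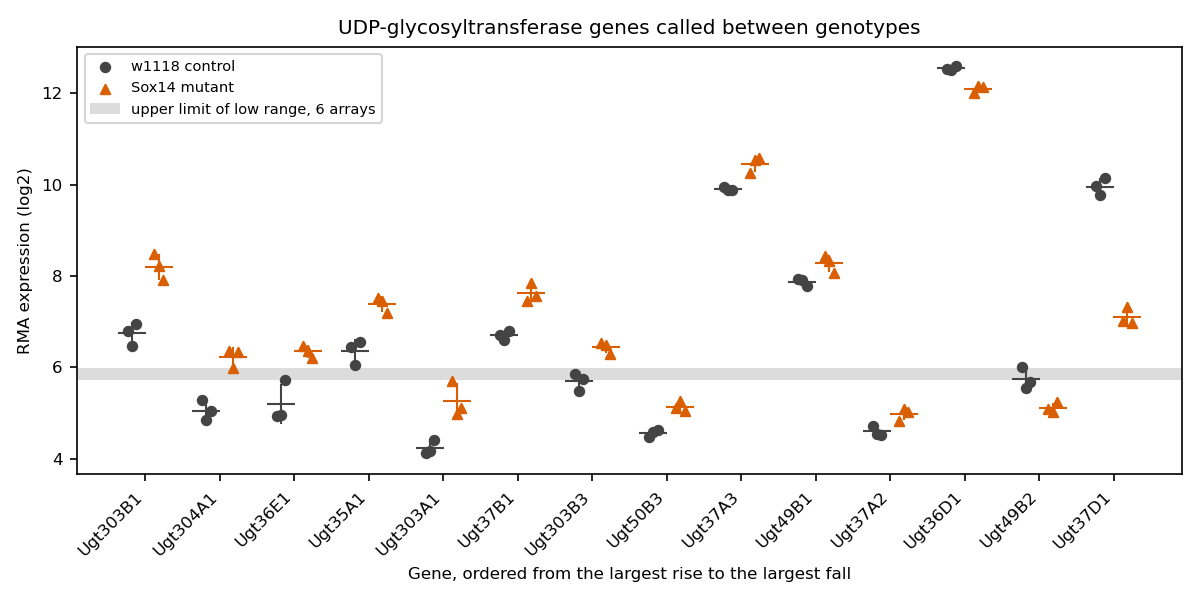
Log2 expression of the 14 called genes on each array, with control arrays as circles and mutant arrays as triangles, horizontal dashes for the mean and vertical bars for the SD over 3 arrays; the grey band spans the limits of the low range, 5.73 to 5.99. In all 14 genes the 3 mutant points lie on 1 side of the 3 control points, with Ugt37D1 showing the widest gap.

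The largest change in the family was the fall of Ugt37D1. Its values were 7.02, 7.32 and 6.97 on the mutant arrays and 9.97, 9.76 and 10.13 on the control arrays. All 3 mutant arrays were thus far below the controls, with a gap many times the SD of either group (0.19 in both). Ugt37D1 fell by 2.85 ± 0.13 (adjusted p = 2.87e-06), equal to 7.20-fold, and ranked 20 among the falls of all genes. Both groups lay above the low range. This probe set is of the type whose probes may also match other transcripts, although the annotation gives it 1 gene. Ugt37D1 was called with each array left out in turn.

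Ugt303B1 showed the largest rise. Its values were 8.49, 8.21 and 7.92 on the mutant arrays and 6.80, 6.48 and 6.96 on the control arrays, above the low range throughout. The lowest mutant array stood well above the highest control array, and the change was 1.46 ± 0.17 (adjusted p = 0.000484), or 2.75-fold. Ugt35A1, also above the low range on every array, gave 7.52, 7.45 and 7.19 in mutants and 6.44, 6.06 and 6.55 in controls. The groups were again separate, with a change of 1.04 ± 0.15 (adjusted p = 0.0015).

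Of the other rises of at least 1, Ugt304A1 went from a control level in the low range to mutant levels above it. Its values were 6.36, 5.98 and 6.33 in the mutant against 5.29, 4.84 and 5.04 in the control. The change of 1.17 ± 0.15 (adjusted p = 0.000751) may understate the difference, since RMA compresses low values. Ugt36E1 gave 6.47, 6.37 and 6.21 in mutants and 4.95, 4.96 and 5.71 in controls, where the third array stood above the other 2 but still below every mutant array. Its change was 1.14 ± 0.20 (adjusted p = 0.0046), with the control in the low range, and it was 1.01 to 1.40 in the other settings tried. The probe set of Ugt36E1 is of the shared type as well. Ugt303A1 gave 5.71, 4.98 and 5.10 in mutants and 4.12, 4.17 and 4.40 in controls. It was called (adjusted p = 0.0052), with the first mutant array the highest. All 6 of its values were in the low range, so no size is given for it.

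Smaller rises were called in 6 further members. Ugt37B1 rose by 0.92 ± 0.12 (adjusted p = 0.000811), from 6.70 ± 0.09 to 7.62 ± 0.19 (SD, n = 3), and Ugt37A3 by 0.56 ± 0.11 (adjusted p = 0.00753), from 9.90 ± 0.04 to 10.46 ± 0.18. These 2 lay above the low range on all arrays. Ugt303B3 changed by 0.75 ± 0.12 (adjusted p = 0.00314), with its control values in the low range. Ugt50B3 (adjusted p = 0.00407) and Ugt37A2 (adjusted p = 0.0374) were called while their 6 values stayed in the low range, between 4.47 and 5.26 for Ugt50B3. Ugt49B1, at 8.27 ± 0.18 in the mutant and 7.88 ± 0.09 in the control, rose by 0.40 ± 0.11 (adjusted p = 0.042).

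The calls of Ugt49B1 and Ugt37A2 rested on the full set of arrays. Ugt49B1 was called in 1 and Ugt37A2 in 2 of the 6 fits that left out an array. Ugt49B1 kept its call only without the third mutant array, and its adjusted p was 0.0724 to 0.135 without any other. Ugt37A2 kept its call only without the first mutant or the first control array, and its adjusted p was 0.092 to 0.141 without the others. With the replicate number as a block, Ugt37A2 was not called (adjusted p = 0.0814). After median centring neither was called, and Ugt49B1 was not called after quantile normalisation (adjusted p = 0.0518). Each of the other 12 called members was called in all 6 fits that left out an array. With no moderation of the variance across probe sets, the calls of Ugt36E1, Ugt303A1, Ugt37A3, Ugt303B3 and Ugt49B2 were lost too.

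Beside Ugt37D1, 2 members fell. Ugt36D1 gave 12.00, 12.15 and 12.13 in mutants and 12.53, 12.51 and 12.58 in controls, far above the low range. The spread within each genotype was small (SD 0.08 and 0.04), and Ugt36D1 fell by 0.45 ± 0.09 (adjusted p = 0.00824). Ugt49B2 changed by -0.62 ± 0.13 (adjusted p = 0.0118), with all 3 mutant values and 2 of 3 control values in the low range.

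**Figure D2:**
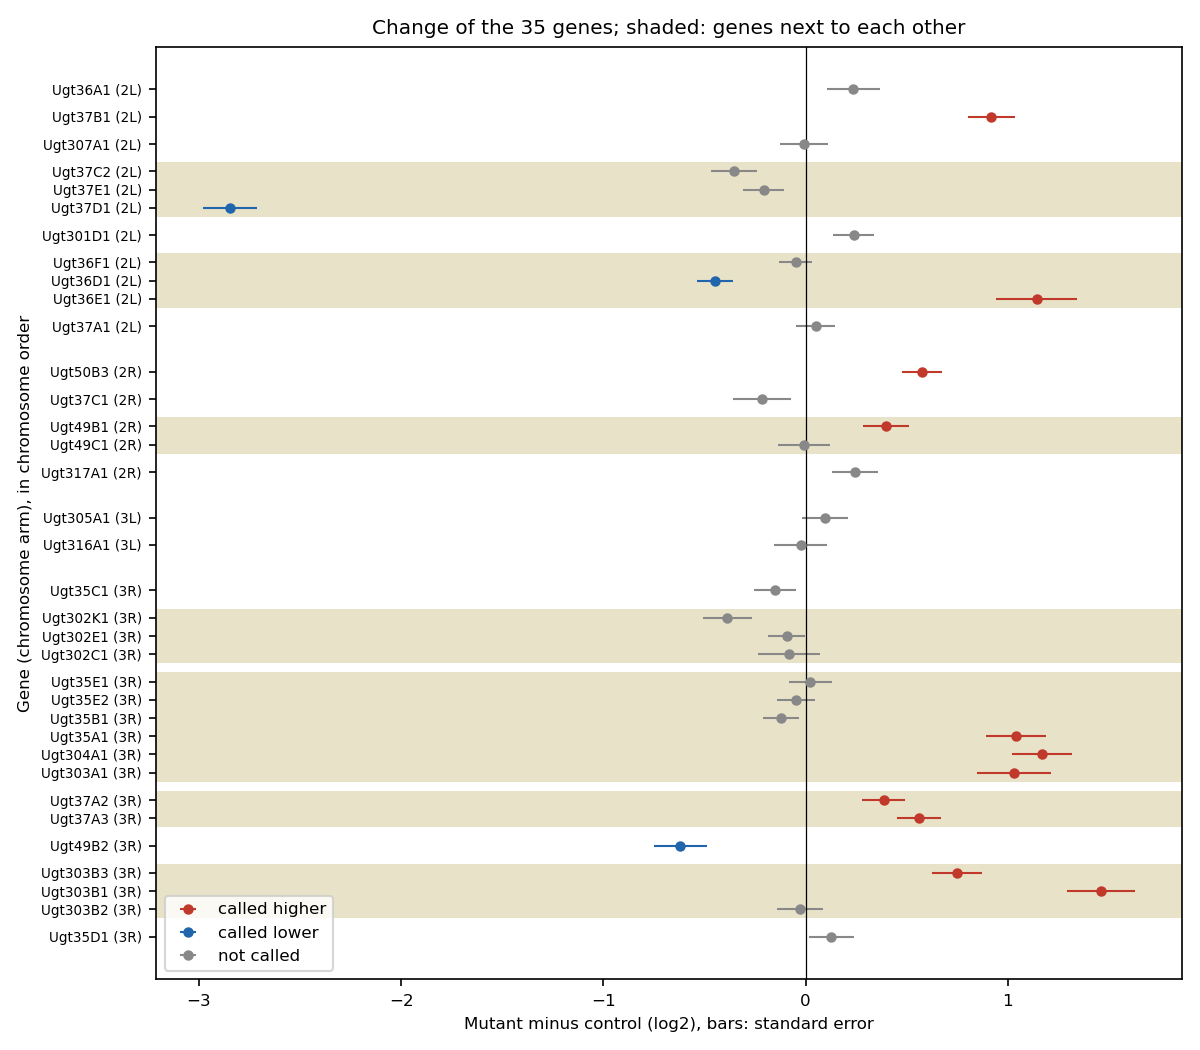
Change of each of the 35 genes (mutant minus control, log2) with its standard error, in chromosome order, with genes that lie next to each other shaded together; red marks genes called higher, blue called lower and grey not called. The 3 last genes of the run of 6 on 3R rise side by side, while Ugt36D1 and Ugt36E1, neighbours on 2L, move in opposite directions.

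The genes not called had changes between -0.39 and 0.24. Of these 21 members, 14 lay in the low range on all arrays, and among them were Ugt35B1, known from the antenna of the adult fly, and Ugt35C1. Ugt35B1 lay at 4.07 to 4.21 in mutants and 4.20 to 4.32 in controls, and Ugt35C1 at 5.23 to 5.48 and 5.38 to 5.60, both groups in the low range and with overlap between the genotypes. The other 7 were above the low range. Ugt301D1, at 11.66 ± 0.04 in the mutant and 11.42 ± 0.15 in the control (adjusted p = 0.151), and Ugt302K1, at 8.59 ± 0.17 and 8.98 ± 0.16 (adjusted p = 0.059), did not overlap between the genotypes. Ugt302K1 was called lower with median centring, with array weights and without the dimmest 40% of probe sets. Ugt316A1, at 10.70 ± 0.26 and 10.73 ± 0.03, Ugt302C1, at 9.16 ± 0.25 and 9.24 ± 0.22, and Ugt305A1, at 8.36 ± 0.12 and 8.27 ± 0.16, differed by less than their spread. Ugt317A1 (0.24 ± 0.11, adjusted p = 0.186) and Ugt36A1 (0.24 ± 0.13, adjusted p = 0.272), the gene also known as Dorothy, completed the group.

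**Figure D3:**
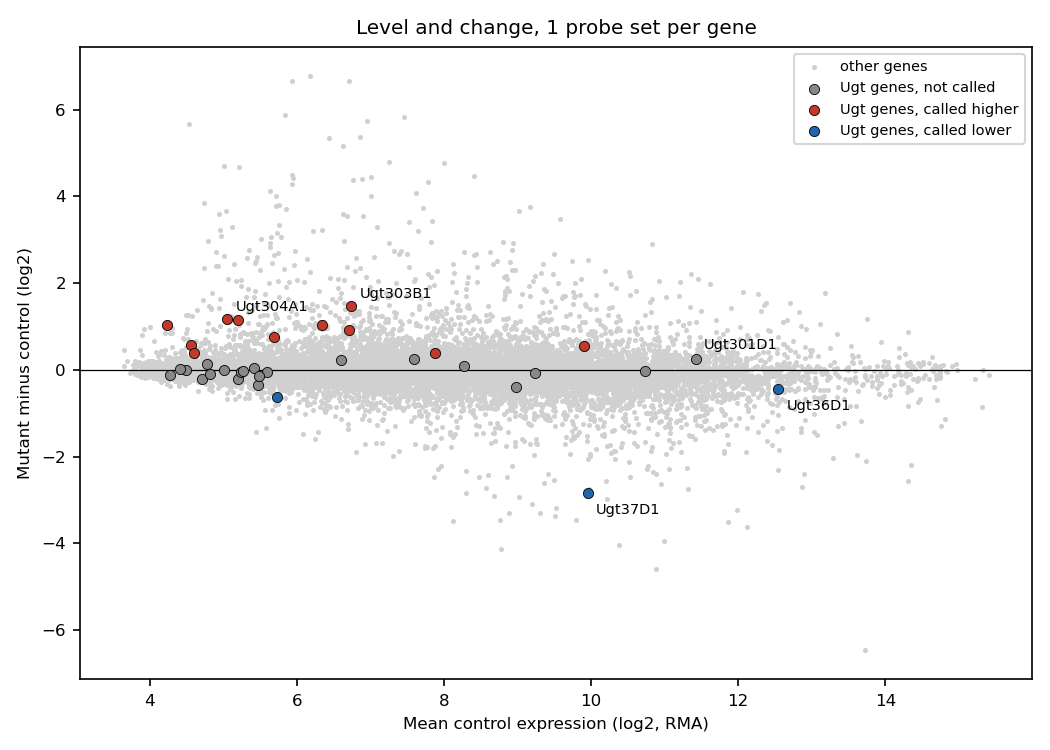
Change of each gene (mutant minus control, log2) against its mean control level (log2), with the 35 Ugt genes as large points coloured by their call and all other genes in pale grey. Of the 35 genes, 17 lay in the low range on all arrays, at the left side, and Ugt37D1, at a control level of 9.95, is the one far below the line.

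The 35 genes lie on both large autosomes. Chromosome 2, which carries Sox14 on its right arm, holds 16, of which 4 rose and 2 fell (37.5% called, beside 26.8% of all genes on that chromosome). Chromosome 3 holds 19, of which 7 rose and 1 fell (42.1% called, beside 24.4%). For the genes on chromosome 2, among them Ugt37D1, Ugt36E1, Ugt36D1, Ugt37B1, Ugt50B3 and Ugt49B1, strain differences carried along with the mutant allele and the mutation itself cannot be told apart. Whether the strains also differed on chromosome 3 was not tested. By chromosome arm, 2 of 11 genes rose and 2 fell on 2L (36.4% called), and 2 of 5 rose on 2R (40%). Neither of 2 was called on 3L, and 7 of 17 rose and 1 fell on 3R (47.1%).

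Of the 35 genes, 22 lie in 7 runs in which 1 Ugt gene directly follows another among the protein-coding genes, and 13 stand alone. In the runs 9 rose and 2 fell, so that 11 of 22 were called. Among the 13 others 2 rose and 1 fell, so that 3 were called, where 24.7% of all genes were called. Both genes were called in the same direction in 4 of the 15 neighbouring Ugt pairs (26.7%), beside 4.89% of 10346 neighbouring pairs of measured genes. The share over all pairs does not allow for the larger share of the family called higher (31.4%, beside 11.3% of all genes). Ugt304A1 was counted in a pair with Ugt35A1 and again with Ugt303A1. Another pair included Ugt37A2, whose call was lost in most fits that left out an array. Whether probes of related neighbours share signal was not tested. In 1 pair, Ugt36D1 and Ugt36E1, the calls were opposite, beside 2.51% of all pairs.

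The run of 6 on 3R, in which Ugt35E1, Ugt35E2, Ugt35B1, Ugt35A1, Ugt304A1 and Ugt303A1 follow one another, held 3 rises. Its last 3 genes rose, and its first 3, not called, read between 4.07 and 5.37, in the low range on all arrays. The difference in change between neighbours was tested in all 15 pairs by 2-sided exact permutation. With 3 against 3 arrays no p under 0.1 is possible, so this test could not show any pair to differ, whatever the values. In most pairs 1 gene or both lay in the low range, and no size is given for these differences. On the side of Ugt35E1 the run is separated from Ugt302C1 only by CG4757, chosen after its values were seen, which rose by 2.72 ± 0.29 (adjusted p = 0.000319). Of the Ugt302 genes beyond it, none of 3 was called.

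A second run on 3R holds Ugt303B3, Ugt303B1 and Ugt303B2. The first 2 rose, whereas Ugt303B2 averaged 5.24 ± 0.18 in mutants and 5.27 ± 0.10 in controls, in the low range. Together with Ugt303A1, 3 of 4 genes of the Ugt303 group thus rose, at 2 places on 3R. The pair Ugt37A2 and Ugt37A3, elsewhere on 3R, rose as well.

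On 2L, Ugt37D1 closes a run with Ugt37C2 and Ugt37E1. Ugt37E1 averaged 4.50 ± 0.14 in mutants and 4.71 ± 0.08 in controls (adjusted p = 0.218), and Ugt37C2 averaged 5.12 ± 0.15 and 5.48 ± 0.13 (adjusted p = 0.0644). Ugt37C2 was called lower in 4 of the alternative settings, with a replicate block (adjusted p = 0.0486), median centring, array weights or without the second control array. Both genes were in the low range on every array, so the fall of Ugt37D1 stands beside neighbours that gave little signal in either genotype. In the run of Ugt36F1, Ugt36D1 and Ugt36E1, the middle gene fell and the last rose, while Ugt36F1 averaged 5.55 ± 0.04 and 5.60 ± 0.03. On 2R, Ugt49B1 rose and its neighbour Ugt49C1, in the low range, changed by -0.01 ± 0.13.

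The nearest measured genes of other families on each side of the runs and the lone members were called in 17 of 40 cases (42.5%), beside 24.7% of all genes. In these 40 cases 2 genes were counted on both of their sides. Most of the nearest genes adjoined the Ugt gene directly, but some lay further off, up to 6 genes away for ham. For a called Ugt gene there were 13 such cases, including ScpX at 2 genes away. Of these 13, 4 were called in the direction of the Ugt gene and 3 in the other. None of those 4 changed by as much as 1.

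By name group, which reflects sequence similarity, the members moved in differing ways. The counts of these small groups stand beside 11.3% of all genes called higher and 13.4% called lower. The 4 Ugt303 genes had 3 rises and no fall, with Ugt303A1 and the gene not called, Ugt303B2, in the low range on all arrays. The 8 Ugt37 genes ranged from -2.85 to 0.92, with 3 higher and 1 lower. The 6 Ugt35 genes had 1 rise, that of Ugt35A1, and the other 5 lay in the low range. The 4 Ugt36 genes had 1 rise and 1 fall, and so had the 3 Ugt49 genes.

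Genes of UDP-sugar supply and transport were listed separately. Not all of them make or move UDP-glucose, as the list includes Galk and NTPase. Of 14 measured, 5 rose and none fell (35.7% called, beside 24.7% of all genes), with a median change of 0.14. They included the hexokinase gene Hex-A (0.82 ± 0.14, adjusted p = 0.00383) and NTPase, which encodes a nucleotide-hydrolysing enzyme (0.66 ± 0.13, adjusted p = 0.00792). The galactokinase gene Galk (0.59 ± 0.10, adjusted p = 0.00474) and Pgm1, a phosphoglucomutase gene (0.53 ± 0.12), rose too. The fifth was UGP, whose enzyme makes UDP-glucose (adjusted p = 0.0104). It lay in the low range on all arrays, so no size is given for it. The UDP-glucose dehydrogenase gene sgl averaged 11.66 ± 0.19 in mutants and 11.63 ± 0.23 in controls. Of 7 regulators of the response to foreign compounds 14.3% were called, a smaller share than the 24.7% of all genes. Hr96, a nuclear receptor of that response, rose by 0.80 ± 0.11 (adjusted p = 0.00124), and the other 6, including cnc and Keap1, were not called. Of 13 efflux transporter genes, Mdr65 rose by 0.67 ± 0.14 (adjusted p = 0.0113) and Mdr50 fell by 1.77 ± 0.10 (adjusted p = 7.5e-06). That list includes CG5789, now named Cftr after a chloride channel, which was not called.

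**Figure D4:**
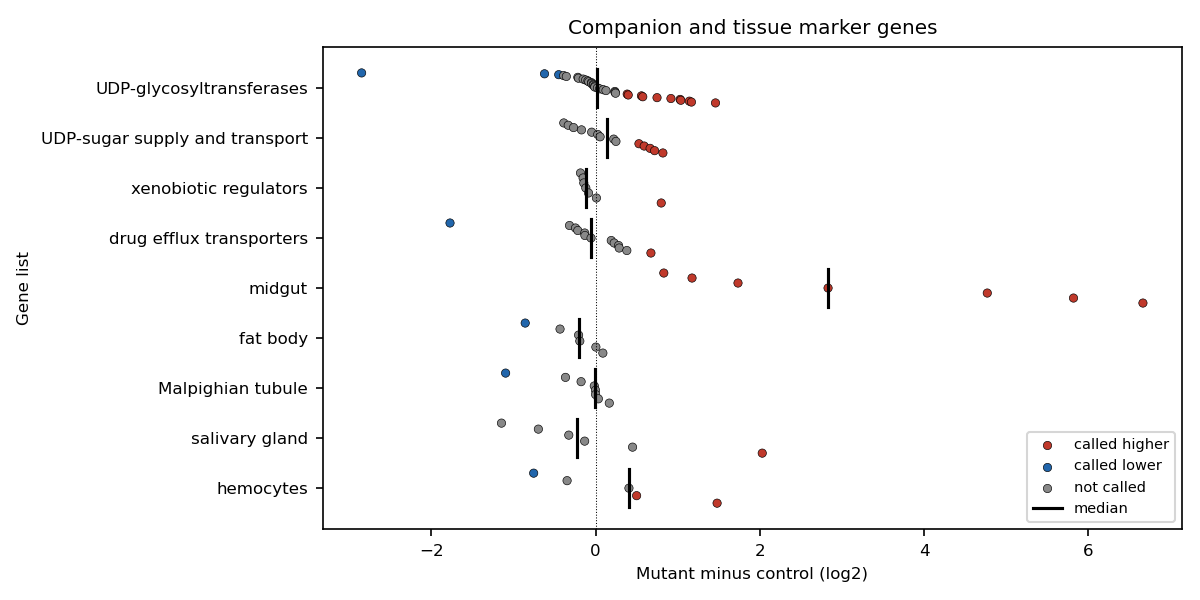
Change of each measured gene (mutant minus control, log2) in the Ugt family, in 3 companion lists and in 5 tissue marker lists, with red for called higher, blue for called lower, grey for not called and a black bar at the median of each list. The midgut markers lie apart from the other lists, with a median of 2.83, while the median of the Ugt family is 0.02.

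Markers of 5 tissues were set beside these changes, to be read against the 24.7% of all genes called. All 7 measured midgut markers rose, with a median of 2.83, and their mean level was 12.56 to 12.79 on the mutant arrays and 9.12 to 9.42 on the control arrays. Of 6 fat body markers 1 fell (16.7% called), Fbp2 (-0.86 ± 0.11), with means of 13.07 to 13.18 in the mutant and 13.37 to 13.46 in the control. Of 8 Malpighian tubule markers 1 fell (12.5% called), Irk1 (-1.09 ± 0.09), with means of 8.43 to 8.49 and 8.53 to 8.74. Of 6 salivary gland markers Sgs4 rose (16.7% called), and the means spread over 10.72 to 13.14 in the mutant and 12.01 to 12.43 in the control. Of 5 hemocyte markers 60% were called, in both directions, with means of 7.69 to 7.80 and 7.35 to 7.58. Of these markers eater (1.48 ± 0.12) and NimC1 (0.50 ± 0.15) rose and PPO1 (-0.75 ± 0.14) fell. The part of the marker values in the Ugt values was not tested. In RNA of whole animals, a change in the amount of a tissue and a change of RNA per cell cannot be told apart.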

How the data were processed

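Total RNA of whole prepupae was hybridised to Affymetrix arrays, and per the submitters' processing notes the authors used Affymetrix Expression Console 1.1 with RMA to make the deposited log2 values. This method subtracts background, brings the arrays to a common distribution and combines the probes of a set, which leaves no measure of RNA per animal. The sources used here name no genome build for the arrays, and no sequences or positions are printed.

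Of 18952 probe sets, 183 control probe sets were left out and 18769 were tested, and 13647 had a single gene in the platform annotation. For genes with several probe sets the one with the highest mean was taken, and all 35 Ugt identifiers matched RefSeq. The test of genotype was the 2-sided moderated test of limma 3.58.1 (lmFit, then eBayes) under R 4.3.3, and the fit was tested on simulated data. The number of arrays limits the precision. Alternative settings were median centring, quantile normalisation, a replicate block, trended robust variance, array weights, omission of the dimmest 40%, averaging the probe sets of a gene, a threshold of 0.01, no variance moderation and each array left out. The low range was set after seeing the data and leaves out 2 control probe sets that differed between genotypes. The members and lists were chosen with earlier results of these data known. Values on all arrays are given for called members that changed by at least 1, and for Ugt36D1, Ugt35B1 and Ugt35C1, which were added after their values were seen. Of the companion lists, up to 4 called genes of largest change are named; Pgm1, sgl, cnc, Keap1 and Cftr were added after their values were seen, as were the tissue markers named.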

Additional observations from a re-analysis of the deposited data

How the results depend on the processing

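The count of Ugt genes called higher, 11 with all arrays, was 9 to 11 in all but 2 of the alternatives. It was 5 after omission of the dimmest 40% of probe sets, when 14 of the 35 genes were tested, and 5 with no variance moderation. The count called lower, 3 with all arrays, was 5 with median centring and 5 with array weights, where Ugt37C2 and Ugt302K1 passed the threshold, and 2 to 4 in the others. The median change of the family was 0.24 with the dimmest 40% left out. In the other settings it was -0.02 to 0.08, and it was below 0 with median centring (-0.02) and without the second control array (-0.01). The number of companion genes called higher, 7 with all arrays, was 4 at a threshold of 0.01 and 2 with no variance moderation. The number called lower, 1, became 2 with median centring, with array weights and without the third control array. Leaving out 1 array at a time gave 9 to 10 Ugt genes higher and 3 to 4 lower, a median of -0.01 to 0.08, and 6 to 8 companion genes higher and 1 to 2 lower. No called member changed sign in any setting tested. Without moderation, 7 of the 14 calls were lost. The causes of these differences were not tested, except that fewer genes were tested under the filter. With the replicate number as a block, 10 Ugt genes were higher and 4 lower. The numbers were not taken to pair the samples, since the deviations of same-numbered arrays correlated at 0.17, -0.10 and -0.02, and 2 of 6 samples correlated best with their own number. Signal is a limit too, with 17 of 35 genes in the low range on every array.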
